A study of Oryza sativa Japonica Group with 12 samples.

Results

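The comparison set root libraries of rice seedlings (Oryza sativa Japonica Group, cv. Nipponbare) 24 h after a leaf spray of 300 µM piperonylic acid against root libraries of mock-sprayed seedlings of the same age. There were 3 treated libraries and 3 mock libraries, 6 of the 12 of the series. Genes averaging 10 or more normalised counts across these 6 libraries were taken, which kept 19265 of the 35833 rows of the table. The treated group was sprayed 13 days after transplanting with piperonylic acid in 0.1% Tween 20 and was 14 days past transplanting at harvest, and the mock group, of the same age, was sprayed with a matching mock solution whose content is not given. Per the labels, all plants grew at 28 °C with 12 h of light, and each library came from the pooled roots of 4 plants, so a library is an average over plants. The series title names roots inoculated with the root-knot nematode Meloidogyne graminicola, and the sample names count hours from a second treatment. The protocols describe 1 spray and no inoculation, so whether these roots held nematodes is not stated in the sources used here. The remaining 6 libraries were taken 6 h after the same sprays.

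Piperonylic acid inhibits cinnamate 4-hydroxylase, the enzyme that follows phenylalanine ammonia-lyase at the start of the phenylpropanoid pathway. That pathway supplies the building blocks of lignin, which stiffens and seals root cell walls, as well as flavonoids and many defence compounds. Rice roots also make diterpenoid phytoalexins, antimicrobial compounds of another pathway, and heat shock proteins, the chaperones that keep other proteins folded. The question was which root transcripts differed a day after the leaves were sprayed.

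The libraries were 3′ mRNA libraries, in which a read marks the end of a transcript, and values are normalised counts, that is reads divided by a factor for the size of the library. The 24 h libraries held 7294396 to 10254382 reads, apart from replicate 1 of the mock group with 20301774. Between 24708 and 27162 genes were above 0 in a library, and the 10 most abundant genes took 10.09% to 12.15% of the counts. These are whole roots, so fewer cells of a type and less RNA per cell cannot be told apart. No file pairs the identifiers of the table with gene names. The called genes are therefore given by identifier or by rank, with no name or role, and 4 identifiers are printed.

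A gene was called when its adjusted p was under 0.05 in limma, fitted to log2(normalised count + 2) in all 12 libraries, which share one estimate of spread. Fold changes on this scale are understated for genes with few counts. Of the 19265 genes, 22 were called, 0.114%, with 11 higher and 11 lower in treated roots, or 0.0571% in each direction. The replicate numbers in the sample titles and source names differ for 3 treated libraries, at 24 h only for treated replicate 3. A block on the source-name numbers ended all 22 calls, with 0 called by limma and 1333 genes at an unadjusted p under 0.05. No treated library has the source-name number of mock replicate 3, so within this block that mock library adds nothing to the contrast. The median log2 difference over all genes was -0.01, and the median size of a difference was 0.13. An unadjusted p under 0.05 was reached by 1181 genes, or 6.13%. In 11.8% of the genes the 3 treated and 3 mock libraries did not overlap, which with 3 against 3 also arises in some genes without any treatment effect. The 22 called genes were all among these, which follows largely from calling by a small p. The 11 higher genes had log2 differences of 0.57 to 2.05, and 4 of them exceeded 2-fold. The 11 lower genes had differences of -1.14 to -0.59, and 1 exceeded 2-fold.

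The largest rise was in Os07g0631200. It had 98.7, 83.1 and 84.8 normalised counts in piperonylic acid roots, against 27.8, 23.9 and 11.5 in mock roots. The lowest treated library was well above the highest mock library. The log2 difference was 2.05 ± 0.25 (SE), with a limma adjusted p of 0.00297, and it was 2.18 ± 0.28 with a limma adjusted p of 0.00695 without mock replicate 2.

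The next rise among the called genes was in Os08g0546800. It had 168, 109 and 141 normalised counts in piperonylic acid roots, against 68.2, 42.8 and 38.3 in mock roots. The groups did not overlap, but both were spread, with a standard deviation of 29.8 in treated and 16.1 in mock roots (n = 3 each). The log2 difference was 1.47 ± 0.23 (SE), with a limma adjusted p of 0.0161. Without mock replicate 2 it was 1.39 at a limma adjusted p of 0.0954. Leaving out mock replicate 3, treated replicate 1 or treated replicate 3 ended the call as well, at limma adjusted p of 0.108, 0.134 and 0.0764, as did edgeR at an adjusted p of 0.0713.

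The smallest p belonged to a fall. Os01g0603300 had 1289, 1230 and 1273 normalised counts in piperonylic acid roots, against 2180, 2207 and 2223 in mock roots. Within each group the libraries lay within a few percent of each other, mock replicate 2 included. The log2 difference was -0.80 ± 0.08 (SE), with a limma adjusted p of 0.00125, and it was -0.80 with a limma adjusted p of 0.00682 without mock replicate 2.

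Os03g0231150 showed the same kind of separation, with 338, 297 and 306 normalised counts in piperonylic acid roots, against 576, 542 and 578 in mock roots. All 3 treated libraries were below all 3 mock libraries. The log2 difference was -0.85 ± 0.10 (SE), with a limma adjusted p of 0.00297, and it was -0.88 with a limma adjusted p of 0.00695 without mock replicate 2.

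**Figure D1:**
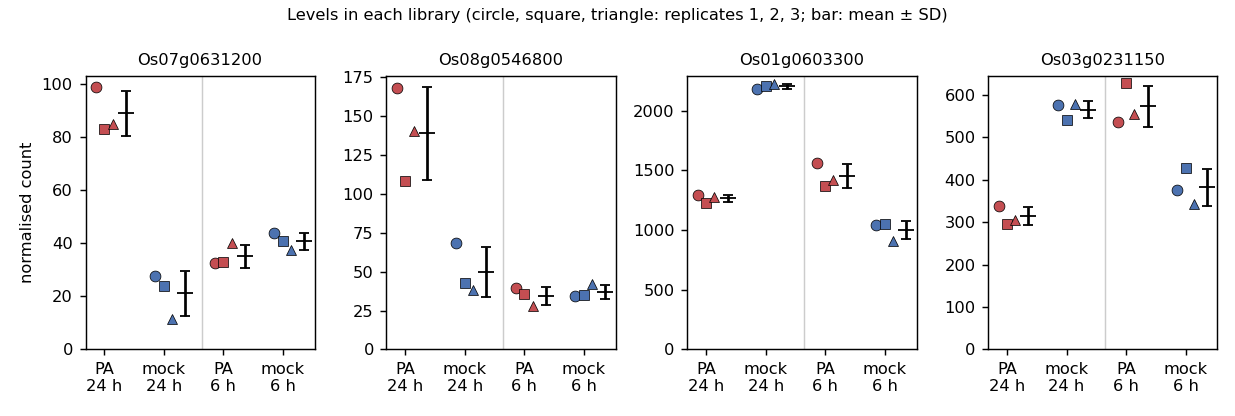
Normalised counts (vertical axis, from 0) of the 4 printed genes in each library of piperonylic acid (PA) and mock roots at 24 h and 6 h. Each symbol is a library, and the bar beside it is the group mean ± SD of 3 libraries. At 24 h Os07g0631200 and Os08g0546800 lay higher in treated roots, and Os01g0603300 and Os03g0231150 lay lower. The times were scaled separately, so levels are to be compared within a time.

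Across the 22 called genes, the 11 higher ones had mean levels of 88.9 to 1533 normalised counts in treated roots, against 21.1 to 1022 in mock roots, and the 11 lower ones had 125 to 1291 in treated roots, against 267 to 2325 in mock roots. The gap between the nearest treated and mock libraries was 0.26 to 1.51 on the log2 scale for the higher genes and 0.40 to 0.76 for the lower ones. The fall ranked 21 in order of the log2 difference had 1494, 1242 and 1136 normalised counts in piperonylic acid roots, against 2360, 2359 and 2256 in mock roots. The rise ranked 4 had 340, 407 and 295 normalised counts in piperonylic acid roots, against 180, 160 and 149 in mock roots. By their identifiers, which carry the chromosome number in the rice locus convention, 5 of the 22 genes, or 22.7%, were on chromosome 2, which held 11.6% of the genes tested. None of the 22 was on chromosome 11 or 12, whose share of the genes tested is not given. With 22 genes these counts are small, and no pattern by chromosome was tested.

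Of the 22 called genes 15 averaged 300 or more normalised counts. Of the 19265 genes tested, 3637 averaged 300 to 1000, of which 9 were called, and 1652 averaged 1000 or more. Of the 3512 genes averaging 10 to 30 normalised counts 0 were called by limma, where the median standard error was 0.34. Of the 1652 genes averaging 1000 or more normalised counts 6 were called, at a median standard error of 0.10. The 20 largest differences of the comparison were of another kind. Of these, 19 were falls, their median standard error was 1.46, and 1 was called. Their sizes began at 1.67 on the log2 scale, and in 15 of the 19 falls mock replicate 2 was the highest of the 6 libraries.

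That library stood apart. Its correlation with the other 24 h libraries over genes was 0.959 to 0.972, while the other libraries reached 0.979 to 0.985 with their nearest neighbour. On the first 2 principal components of the 24 h libraries, which held 34.4% and 29.9% of the variance, it lay at -44.9 and -31.9. Treated replicate 1 lay at -18.2 and 42.6, and treated replicate 3 at 35.4 and -18.9. In 242 genes mock replicate 2 was more than 2-fold above every other library, and in 33 genes more than 2-fold below. Treated replicate 1 was in turn more than 2-fold below every other library in 175 genes. The other 4 libraries were beyond the rest in at most 46 genes on either side. The 242 and the 175 genes shared 8 members, 3.31% of the first set and 4.57% of the second. No called gene was in either set by limma, which is fixed in part by how the sets were chosen.

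**Figure D2:**
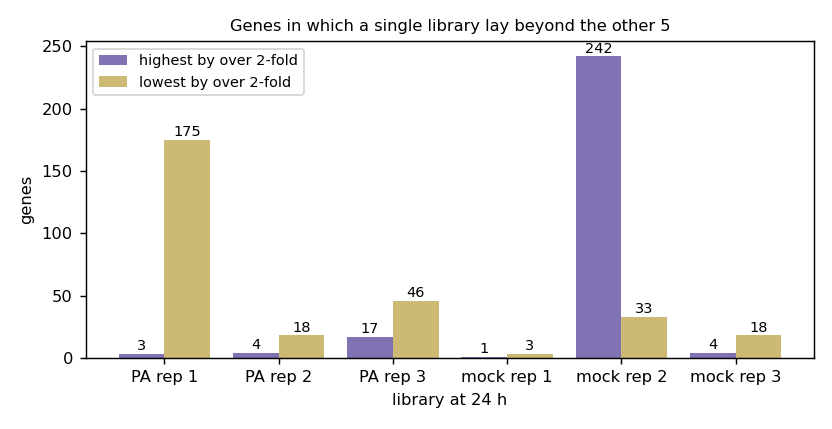
Number of genes (vertical axis) in which 1 library at 24 h lay more than 2-fold above or below all 5 others, for each treated (PA) and mock library. Mock replicate 2 was highest in 242 genes, and treated replicate 1 was lowest in 175 genes.

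The balance of rises and falls depended on mock replicate 2. With it, 28 genes were more than 2-fold higher in treated roots and 123 more than 2-fold lower, 0.784% in all, and mock replicate 2 was the highest library in 90 of these 123. Without it, 62 were higher and 55 lower, 0.607% in all. Of the 123 falls, 48 remained past 2-fold without that library, and 4 had a positive difference. Of the 28 rises, 20 remained past 2-fold. Genes past 1.5-fold made up 4.43% of those tested with the library, 276 higher and 578 lower, and 4.1% without it, 363 higher and 426 lower.

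The called genes moved less, which follows in part from how they were chosen. A call needs little spread within the groups, mock replicate 2 included. Without mock replicate 2 the log2 difference of the 11 higher genes was 0.53 to 2.18, with a median of 0.82 against 0.84 with it. That of the 11 lower genes was -0.95 to -0.57, with a median of -0.78 against -0.80 with it. The difference of 18 of the 22 moved by less than 0.1. The number called by the limma fit with 12 libraries nevertheless fell to 3 of 19265, or 0.0156%, when that library was left out, and 798 genes, or 4.14%, had an unadjusted p under 0.05. All 3 were among the 22, and they are Os07g0631200, Os01g0603300 and Os03g0231150. For the other 19 the limma adjusted p was at most 0.261 and the unadjusted p at most 0.000487. The count was also 5, 5 and 7 without treated replicates 1, 2 and 3 and 5 without mock replicate 3. Without mock replicate 1 it stayed at 20, with 16 of the 22 among them.

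**Figure D3:**
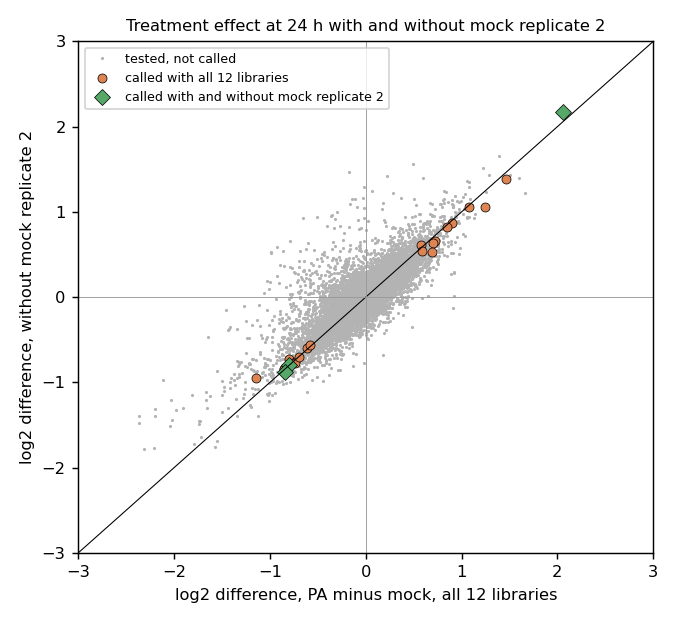
Log2 difference between piperonylic acid and mock roots at 24 h for 19265 genes, with all 12 libraries (horizontal axis) and without mock replicate 2 (vertical axis); the diagonal marks equal values. The 22 called genes lie near the diagonal, in part because a call needs little spread within groups. Of them, 3 were called in both fits.

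Taking the spread from the 24 h libraries alone changed the count without mock replicate 2 in the opposite direction. With the 5 remaining 24 h libraries, limma called 49 genes, 34 higher and 15 lower, edgeR on recovered reads called 50, 33 higher and 17 lower, and DESeq2 called 84, 54 higher and 30 lower. As shares of the genes tested these were 0.254% by limma, 0.26% by edgeR and 0.436% by DESeq2. A set of 48 genes was called by all 3 tools, and 15 of the 48 were among the 22. With all 6 libraries of 24 h, limma called 28 genes, or 0.145%, edgeR 25, or 0.13%, and DESeq2 68, or 0.353%. Among these were 16 of the 22 by limma, 14 by edgeR and 22 by DESeq2. The median standard deviation of a gene on the log2 scale was 0.18 over the mock libraries at 24 h (n = 3). Without replicate 2 it was 0.12 (n = 2), and over the treated libraries 0.17 (n = 3). It was 0.17 and 0.18 over the treated and mock libraries of 6 h (n = 3 each). At equal spread this median runs lower over 2 libraries than over 3, so the 0.12 is not directly comparable. Os07g0631200, Os01g0603300 and Os03g0231150 were called in all 8 of these fits, by 3 tools with and without the library and by the limma fit over both times with and without it, and a median called gene in 7 of the 8.

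The same genes were then read at 6 h, in libraries that the 24 h comparison did not use except for the shared estimate of spread. Of the 11 genes lower at 24 h, 8 were positive at 6 h, against 51.4% of the genes tested. Of these 11, 6 were called at 6 h in the fit without a block, all of them higher in treated roots. Of the genes tested 1.53% were called at 6 h and 0.737% called higher. A call at 24 h favours genes with a small shared spread, which also makes a call at 6 h easier. The shares over all genes are therefore not a matched background. With a replicate block, chosen after seeing the data, 5 of the 11 were called at 6 h by the title numbers and 2 by the source-name numbers, all of them higher, beside 3.97% and 0.337% of the genes tested. The 6 had log2 differences of -0.86 to -0.70 at 24 h and of 0.47 to 1.05 at 6 h. Os01g0603300 was among them, with 1450 ± 103 normalised counts in piperonylic acid roots and 999.5 ± 78.5 in mock roots at 6 h (SD, n = 3 each), as was Os03g0231150, with 573 ± 48.5 in piperonylic acid roots and 382 ± 43.3 in mock roots (SD, n = 3 each). The 6 h treated libraries of both genes lay above the 6 h mock libraries, the reverse of the order at 24 h.

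Of the 11 genes higher at 24 h, 0 were called at 6 h by limma, 9 were negative, against 48.6% of the genes tested, and the largest difference at 6 h was 0.32 in size on the log2 scale. Os07g0631200 had 35.2 ± 4.34 normalised counts in piperonylic acid roots and 40.7 ± 3.12 in mock roots at 6 h (SD, n = 3 each), and Os08g0546800 had 34.4 ± 5.80 in piperonylic acid roots and 37.2 ± 4.47 in mock roots (SD, n = 3 each). The difference between the treatment effects at 24 h and 6 h was tested by limma over all genes, and 105, or 0.545%, passed. With a replicate block on the title numbers 366 passed, and with one on the source-name numbers 25. Of the 22 genes 15 were among the 105, 8 of the lower and 7 of the higher, against 19 under the title block and 8 under the source-name block. Without a block all 22 had an unadjusted p under 0.05 for it. The 22 were chosen by their 24 h difference, which is one term of this test. The 105 became 35 to 453 when 1 library was left out, and it moved by over 1.5 times without each of them except mock replicate 2 of 24 h and mock replicate 1 of 6 h, which gave values within that range.

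**Figure D4:**
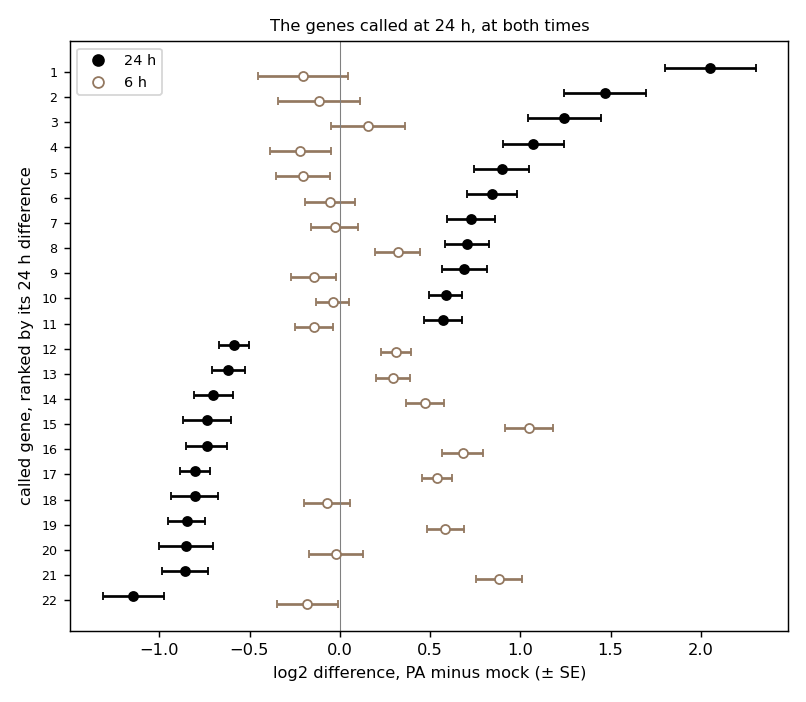
Log2 difference (horizontal axis, ± SE) between piperonylic acid and mock roots at 24 h (filled) and 6 h (open) for the 22 genes called at 24 h, ranked from the largest rise to the largest fall. The 11 rises at 24 h lay within 0.32 of 0 at 6 h, and 8 of the 11 falls were positive at 6 h.

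To describe pathways, 16 lists of rice locus identifiers were used. They were written from recalled published loci that no file here can check, so the name of a list gives its intended content. Of 178 identifiers 176 were in the table and 158 passed the minimum level. None of the 158 was called by the limma fit with 12 libraries, with mock replicate 2 or without it. The lists need not be complete, so this does not cover genes of the same kinds that they leave out. In 7 of the 16 lists some members had an unadjusted limma p under 0.05, and the counts given for the lists are descriptions with no test. Over all genes 51.9% were lower in treated roots (50.7% without mock replicate 2), and in 6.2% the treated libraries lay wholly above and in 5.57% wholly below the mock libraries.

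The list of heat shock proteins and factors held 12 tested members, of which 11 were higher in treated roots, with a median log2 difference of 0.46. The intended members are chaperones and the factors that switch their genes on. Their summed level was 83030, 83220 and 85080 normalised counts in piperonylic acid roots, against 68370, 70530 and 71260 in mock roots. The largest part of these sums came from 1 member with a log2 difference of 0.16. It had 44960, 44060 and 49940 normalised counts in piperonylic acid roots, against 40940, 41260 and 41620 in mock roots. The treated sums lay above the mock sums, and 8 members lay wholly above the mock libraries, at log2 differences of 0.16 to 0.91. An unadjusted limma p under 0.05 was reached by 6 members, and the lowest adjusted p was 0.118. That member had 1758, 1804 and 2005 normalised counts in piperonylic acid roots, against 1356, 909.7 and 778.8 in mock roots, a log2 difference of 0.91 ± 0.18 (SE). The treated libraries were close to each other and all above the mock libraries. Without mock replicate 2 the median was 0.46 and 11 of 12 were positive, with 6 again at an unadjusted limma p under 0.05. The median was 0.39 to 0.51 when any of the 12 libraries was left out. At 6 h 2 of the 12 were positive, with a median of -0.09.

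Aquaporins, the channels that pass water through membranes, were positive in 13 of 16, with a median log2 difference of 0.20. The summed level was 291200, 310200 and 289200 normalised counts in piperonylic acid roots, against 275600, 219600 and 283300 in mock roots. Mock replicate 2 was the lowest library, and without it the median was 0.06, with 12 of 16 positive. In this list 4 members lay wholly above the mock libraries, at log2 differences of 0.20 to 0.36, and 4 had an unadjusted limma p under 0.05, the lowest adjusted p being 0.679. Without mock replicate 2 none of these 4 kept an unadjusted p under 0.05, and 1 other member, lower in treated roots, had one. At 6 h 13 of 16 were positive, with a median of 0.19.

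The 2 lists of the pathway that piperonylic acid inhibits were mostly negative. In the list of phenylpropanoid entry, meant to hold phenylalanine ammonia-lyase, cinnamate 4-hydroxylase and 4-coumarate CoA ligase genes, 11 of 13 members were lower and the median log2 difference was -0.18. Its summed level was 71260, 86710 and 73900 normalised counts in piperonylic acid roots, against 68110, 78980 and 73490 in mock roots, so the groups overlapped. Most of this sum came from 1 member, with 57760, 72400 and 62160 normalised counts in piperonylic acid roots, against 56620, 61360 and 58520 in mock roots. That member was higher by 0.12, so the sum does not show the lower members. Without mock replicate 2 the median was -0.08, with 9 of 13 lower. In the monolignol branch, which leads to lignin, 9 of 10 were lower and the median was -0.12. It stayed at -0.12 without mock replicate 2, with 10 of 10 lower. Here 3 members lay wholly below the mock libraries, at -0.60 to -0.13, and 2 had an unadjusted limma p under 0.05, the lower of them at an adjusted p of 0.375, against 1 without mock replicate 2. The monolignol score, the mean over members of the log2 value minus its mean over the 6 libraries, was -0.10 ± 0.02 in piperonylic acid roots and 0.10 ± 0.11 in mock roots (SD, n = 3 each).

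The lists of defence genes were highest in mock replicate 2, which was the highest of the 6 libraries for 23.6% of all genes. For diterpenoid phytoalexins this held for 14 of 15 members, for jasmonate synthesis and response for 16 of 16, for PR proteins, a class of small pathogenesis-related proteins, for 4 of 4, and for chitinases and glucanases, which cut fungal walls, for 11 of 13. The diterpenoid phytoalexin sums were 3922, 2472 and 888.6 normalised counts in piperonylic acid roots, against 1442, 9607 and 1462 in mock roots. Treated roots thus ranged from above to below the other 2 mock libraries. Of its 15 members 14 were lower in treated roots, the median log2 difference being -0.46, and 11 were higher, with a median of 0.29, without mock replicate 2. The PR sums were 23650, 11530 and 9213 normalised counts in piperonylic acid roots, against 15420, 45280 and 11870 in mock roots. In this list the median was -0.68 with mock replicate 2 and -0.05 without it. The jasmonate list had a median of -0.26 with it and 0.04 without it, and the chitinases and glucanases had -0.59 with it and -0.01 without it. These medians also moved with other libraries: that of diterpenoid phytoalexins was -0.99 without treated replicate 1, 0.06 without treated replicate 3, -1.001 without mock replicate 1 and -0.79 without mock replicate 3. One jasmonate member, with 282, 208 and 196 normalised counts in piperonylic acid roots, against 117, 539 and 123 in mock roots, was called by limma and edgeR with the 5 libraries of 24 h that leave mock replicate 2 out. With that library the groups overlap and its log2 difference was 0.18. At 6 h the median of diterpenoid phytoalexins was 0.91, with 14 of 15 positive, and that of PR proteins was 1.37, with 4 of 4 positive.

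The last 2 lists held transcription factors. WRKY factors, which act in defence, were lower in 5 of 9, with a median log2 difference of -0.33, and 0.02 without mock replicate 2, which was the highest library for 5 of the 9. DREB factors, regulators of the response to cold and drought, had 2 of 4 higher and a median of 0.02, and 3 of 4 higher and a median of 0.07 without that library. One DREB member had 79.2, 135 and 102 normalised counts in piperonylic acid roots, against 34.6, 31.5 and 39.2 in mock roots, with no overlap. Its log2 difference was 1.51 ± 0.57 (SE), at an adjusted p of 0.761 in the limma fit with 12 libraries. With the 24 h libraries alone it was called by limma and edgeR, with mock replicate 2 and without it. At 6 h the same member had a log2 difference of -2.16. It was the one list member called by limma or edgeR in the 24 h libraries with mock replicate 2 included, and it and the jasmonate member were chosen after their values were seen. At 6 h all 4 DREB members and 8 of 9 WRKY members were negative, with medians of -1.15 and -1.23.

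**Figure D5:**
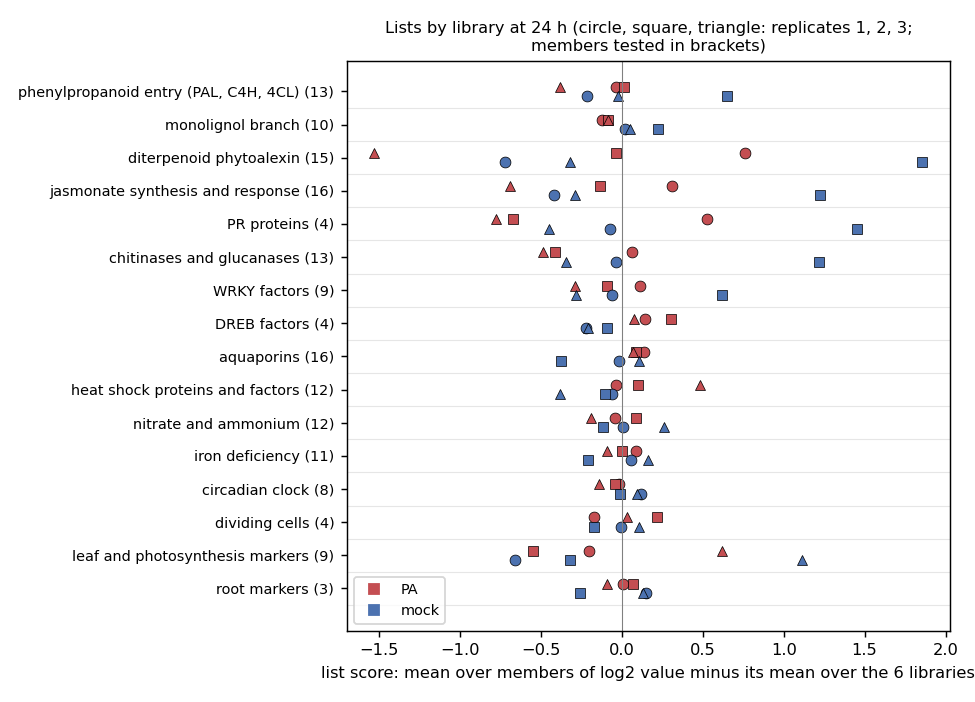
List scores (horizontal axis, mean over members of the log2 value minus its mean over the 6 libraries) of each piperonylic acid (PA) and mock library at 24 h for 16 lists named by their intended content. Mock replicate 2 lies at 1.86 for diterpenoid phytoalexins and 1.45 for PR proteins. The scores of the monolignol branch, DREB factors and, narrowly, heat shock proteins and the circadian clock do not overlap between the groups. Among DREB factors 1 member had a log2 difference of 1.51 and the others had -0.15, -0.01 and 0.04. Of single genes 11.8% did not overlap either, and the separation of the lists was not tested.

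Identifiers recalled as markers of shoot tissue had counts in every 24 h library and did not follow the treatment at 24 h. The 9 leaf and photosynthesis identifiers summed to 609, 515 and 1519 normalised counts in piperonylic acid roots, against 484, 633 and 1596 in mock roots, and none of them was at 0 in any of the 6 libraries. Replicate 3 was the highest of each group. The 3 root identifiers summed to 50690, 54780 and 48420 normalised counts in piperonylic acid roots, against 54750, 40780 and 55570 in mock roots, lowest in mock replicate 2. Of the 9 leaf identifiers 8 were negative at 6 h, with a median log2 difference of -0.97, against 48.6% of the genes tested. Of the 3 root identifiers 1 was negative at 6 h, with a median of 0.28. The part of these levels in the results was not tested.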

How the data were processed

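Root RNA was sequenced as 3′ mRNA libraries, 3 per group. Per the submitters' processing notes the tools included FastQC 0.11.8, Trimmomatic 0.38, STAR 2.6.1d and DESeq2; neither their roles nor the genome build could be read from the sources used here. The deposited table holds a depth-scaled signal, whole read counts divided by a size factor, scaled apart for 24 h and 6 h. Whole reads were recovered from the steps of the deposited signal, with at least 99.99% of values in each 24 h library whole within 0.01 reads. The deviations of treated and mock libraries with the same title number correlated at 0.291, 0.263 and 0.112 at 6 h. At 24 h they correlated at -0.188, 0.0492 and 0.0264. The main fit paired libraries at neither time, so its 6 h results leave out any pairing there. The replicate blocks, run as alternatives, covered both times. From log2(value + 2), limma 3.58.1 (R 4.3.3) fitted 4 group means over 12 libraries with a trended, robust variance and Benjamini-Hochberg adjustment over genes with a 24 h mean of at least 10. As alternatives, the recovered 24 h reads were analysed with edgeR 4.0.16 and with DESeq2 1.42.0, and all 3 tools were tested on simulated data. Replicate libraries differed by more than counting error. Nothing in the labels says that replicates were separate cultures, so p-values measure the spread between these pools. Printed identifiers were the genes called both with and without mock replicate 2, plus the next largest rise among the called genes. They were chosen after values were seen because the planned naming needed gene names. The members and lists were chosen with earlier results of these data known. A further 12 lists were defined by product names and could not be applied.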

Additional observations from a re-analysis of the deposited data

Results flagged for a closer look

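For the 4 printed genes the treatment effect differed between the times, by limma's test of the difference itself. The log2 effect at 24 h minus that at 6 h was 2.26 ± 0.36 (SE) for Os07g0631200, at a limma adjusted p of 0.0102, and 1.58 ± 0.32 for Os08g0546800, at 0.0385. It was -1.34 ± 0.12 for Os01g0603300, at a limma adjusted p of 0.000124, and -1.43 ± 0.14 for Os03g0231150, at 0.000244. The first pair were higher in all 3 treated libraries at 24 h and overlapped mock roots at 6 h. The other pair were lower in all 3 treated libraries at 24 h and higher in all 3 at 6 h. Under the source-name replicate block the difference for Os08g0546800 had a limma adjusted p of 0.0935, and under either block the other 3 stayed under 0.05. Because the genes were chosen at 24 h, the size of the difference is a description.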

How the results depend on the processing

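The 22 genes called at 24 h kept their direction under each alternative run. As their treated and mock libraries did not overlap, this was largely fixed in advance. The number called was 40 with library quality weights (18 higher, 22 lower) and 68 by DESeq2 (36 higher, 32 lower). It was 0 by limma with a replicate block on the source-name numbers (0 higher, 0 lower, 1333 at an unadjusted p under 0.05). With no filter on low values 7 were called higher. Leaving out 1 library gave 3 to 30 genes, 1 to 17 higher and 2 to 13 lower. Without mock replicate 2, the 3 calls became 49 with the 24 h libraries alone, 18 with weights, 50 by edgeR and 84 by DESeq2. Under the replicate block there they became 0 by title numbers (838 at an unadjusted limma p under 0.05) and 1 by source-name numbers. Leaving out a further library gave 0 to 5, with 0 by limma without treated replicate 2 (684 at an unadjusted p under 0.05) or mock replicate 3 (368). The 105 genes whose effect differed between times became 232 with weights, 366 with the title replicate block and 25 with the source-name replicate block, and 35 to 453 when 1 library was left out. The cause was not tested. At 24 h not every sample correlated best with its own title number, while at 6 h each treated library did, and the title block called 26 genes at 24 h, 19 of the 22 among them. Under the source-name block the limma adjusted p of the printed genes was 0.0526 to 0.0929. At either time no treated library has the source-name number of mock replicate 3, so that mock library adds nothing to contrasts under this block. The difference between times was not run with edgeR or DESeq2, since reads were not recovered for 1 library of 6 h. Low counts limit the comparison: below a mean of 30 the median standard error was 0.34.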

Other observations

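Lists for mineral nutrition, the clock and dividing cells had median differences near 0 at 24 h. Of 12 nitrate and ammonium genes 8 were lower in treated roots, with a median log2 difference of -0.11, and 9 were lower without mock replicate 2, with a median of -0.12. Iron deficiency genes were lower in 6 of 11, with a median of -0.01, and in 9 of 11 without that library, with a median of -0.13. The circadian clock list was lower in 5 of 8, with a median of -0.09, and in 6 of 8 without that library, with a median of -0.16. The list of dividing cells was higher in 3 of 4, with a median of 0.05, and in 1 of 4 without that library, with a median of -0.06. The iron list summed to 205800, 205500 and 176400 normalised counts in piperonylic acid roots, against 209500, 167600 and 236700 in mock roots, so mock libraries lay on both sides of the treated ones. None of these lists had a called member in the limma fit with 12 libraries, and 1 nitrate, 1 iron and 2 clock members had an unadjusted p under 0.05, against 4 nitrate, 2 iron and 1 clock members without mock replicate 2.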
